A study of Mus musculus with 35 samples.

Results

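XEN cells, stem cells of the extra-embryonic endoderm, were compared with untreated ES cells, the stem cells of the pluripotent epiblast, for the genes that define each of these cell types. The members were 124 autosomal identity genes, 59 of ES cells and 65 of XEN cells. They were chosen by name from the known roles of the genes, with earlier results of these data known. They were taken from 44853 genes in a table of RNA-seq libraries, of which 14061 were tested, 13278 of them on autosomes. A gene was tested when its mean was at least 1 TPM (transcript abundance on a scale whose sum is fixed for each library) in either cell type. By this filter 116 of the 124 members were tested and the other 8, all XEN identity genes, were too low in both cell types.

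The comparison used 5 of the 35 libraries of a study of the pioneer factor GATA6, 3 of ES cells at 0 h and 2 of XEN cells. The ES cells were KH2 cells of C57BL/6 x 129/Sv background, carrying a doxycycline (Dox) inducible gata6 cassette that was not induced at 0 h, and were grown in serum and LIF on feeders, which are fibroblasts that no longer divide. They derive from drug-selected clones, and the labels do not say which clone each library came from. The XEN cells were the untreated wild-type X10 line of CD1 background, grown on feeders in serum without LIF. Beside them were set 3 libraries made from the same ES line once Dox (1 µg/mL) had acted for 168 h. The study's methods list 2-mercaptoethanol for the ES medium alone, while the labels name LIF as the only difference. Cell type therefore went together with line, strain, transgene and medium, and the share of each in a difference cannot be told apart. Each cell type was represented by 1 line, so the error below is that between cultures of a line. It was estimated over all 23 libraries of the induction series in 8 groups, most of them treated with Dox. An SE below is thus not the spread of the ES and XEN cultures alone. In bulk RNA, fewer cells with a transcript and less of it per cell cannot be told apart either.

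The first lineage choice of the inner cell mass sets epiblast against primitive endoderm. Epiblast cells are held in the pluripotent state by a network of transcription factors around OCT4 (encoded by Pou5f1), SOX2 and NANOG, and primitive endoderm cells by GATA6, GATA4 and SOX17. Primitive endoderm later forms parietal endoderm, which secretes a thick basement membrane of laminin and type IV collagen, and visceral endoderm, which takes up maternal proteins by endocytosis and secretes apolipoproteins and other serum proteins.

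The defining markers of both cell types followed the labels. Pou5f1 was at 1558 to 1833 TPM in the ES libraries and at 0.0506 to 0.354 TPM in the XEN libraries, and Gata6 was at 0.193 to 0.375 TPM in the former and at 340.7 to 351.8 TPM in the latter. XEN libraries 1 and 2 differed by a median of 0.0892 on the log2(TPM + 1) scale. ES libraries 1 and 2 differed by 0.1004 and each by 0.168 to 0.170 from library 3. Xist, the RNA that coats the inactive X chromosome, was at 178 to 186 TPM in XEN cells and 0.629 to 1.29 in ES cells. Cell type thus also went together with the level of Xist, and the part of this difference in autosomal genes was not tested. The comparison was defined on autosomal members, so X-linked members were left out of the counts. Among these were Nr0b1, a transcription factor of ES cells, and, of the endoderm genes, Gpc3, a proteoglycan, and Cited1, a transcriptional coregulator. Nr0b1 was at 166 to 188 TPM in ES cells and listed at 0 in both XEN libraries, and Cited1 was at 1.45 to 2.76 TPM against 109.6 to 111.3 TPM. Gpc3 was called lower in XEN cells, a call lost with libraries 1 and 2 averaged (change of -1.19).

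Most identity genes of ES cells were lower in XEN cells and most of those of XEN cells were higher. Of the 59 ES identity genes, all tested, 46 were called lower, 2 higher and 11 neither, where 19.9% of the autosomal genes tested were called lower and 20.1% higher. Of the 57 XEN identity genes that were tested, 41 were called higher, 8 lower and 8 neither. Since the lists were chosen with earlier results of these data known, these counts describe the lists and do not test them. A call needed an adjusted p under 0.05 (limma, Benjamini-Hochberg over 14061 genes) and a change above 1 on the log2(TPM + 1) scale. The median change was -3.93 for ES identity genes and 3.72 for the XEN identity genes that were tested, against -0.01 over all genes tested. With the mean log2(TPM + 1) of fibroblast markers in each library as a covariate, 46 ES identity genes were lower and 42 XEN identity genes higher.

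**Figure D1:**
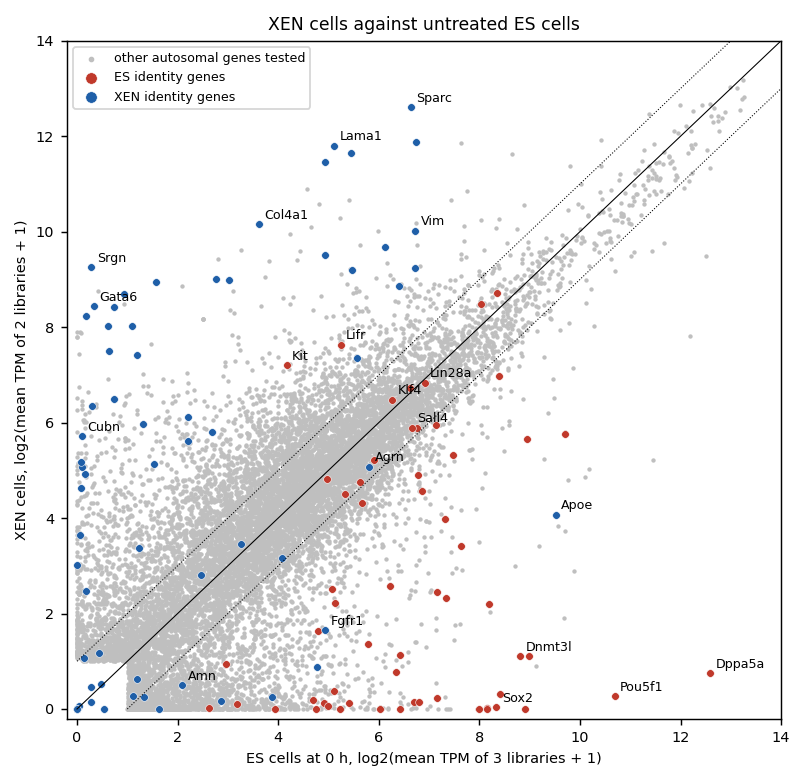
Each point is an autosomal gene tested, or an identity gene, with the log2 of its mean TPM plus 1 in the 3 ES libraries on the x axis and in the 2 XEN libraries on the y axis. The solid line marks equal levels and the dotted lines a change of 1 on this scale. Most red points, the 59 ES identity genes, lie below the lines and most blue points, the 65 XEN identity genes, above them, with Kit and Lifr among the red points above and Apoe and Fgfr1 among the blue points below.

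Pou5f1, Sox2, Nanog and Esrrb, at the centre of the pluripotency network, were under 0.4 TPM in XEN cells. Pou5f1 (chr17:35506018-35510772, mm10) stood at 1572, 1558 and 1833 TPM in the 3 ES libraries and at 0.354 and 0.0506 TPM in the 2 XEN libraries. Sox2, the partner of OCT4 at many enhancers, stood at 341, 332 and 296 TPM in ES cells and at 0 and 0.0607 TPM in XEN cells. Nanog (chr6:122707489-122714633), a homeobox factor of the same network, stood at 268, 278 and 298 TPM in ES cells and at 0.0404 and 0 TPM in XEN cells. Every ES library was far above both XEN libraries for these 3 genes. Their changes on the log2(TPM + 1) scale were -10.43 ± 0.28 (SE) for Pou5f1, -8.29 ± 0.22 for Sox2 and -8.11 ± 0.24 for Nanog, with limma adjusted p values of 1.89e-16, 1.25e-16 and 5.15e-16. Esrrb, an orphan nuclear receptor that sustains self-renewal, was at 248 to 256 TPM in ES cells and listed at 0 in both XEN libraries. The smallest value above 0 in any library was 0.0101 TPM, so a listed 0 is no more precise than that.

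A second set of ES transcription factors kept part or all of its level. Klf4, a zinc finger factor used for reprogramming, stood at 77.7, 73.7 and 75.5 TPM in ES cells and at 90.1 and 86.7 TPM in XEN cells. The XEN libraries were the higher ones, but the change of 0.22 ± 0.20 (SE) was not called (limma adjusted p = 0.317). Klf5, a relative of Klf4, was at 98.9 to 118.9 TPM in ES cells and at 57.1 to 59.6 TPM in XEN cells. Sall4, a zinc finger factor that binds the Pou5f1 gene, was at 94.0 to 106.9 TPM against 57.7 to 59.1 TPM, and its relative Sall1 at 53.8 to 62.3 TPM against 35.8 to 36.1 TPM. These 3 genes and Tbx3, a T-box factor, were lower in both XEN libraries than in any ES library, with adjusted p values under the threshold but changes of -0.86 to -0.69, short of the minimum. Klf2, also of the Klf family, was called lower, at 178 to 215 TPM in ES cells and 8.44 to 11.04 TPM in XEN cells. In all, 14 of the 19 ES transcription factors were called lower and none higher, with Mycn (-1.18 ± 0.10) and Mybl2 (-1.41 ± 0.14), a pair of growth-related factors, showing the smallest changes among those called. The others called lower were Zfp42, a marker of the naive state also known as Rex1, Utf1, Zscan10, Tfcp2l1, Nr5a2, Foxd3 and Prdm14, further factors of the network, with changes from -7.88 for Utf1 to -3.08 for Prdm14. Of these, Tfcp2l1 and Zfp42 kept 4.64 to 5.36 and 3.11 to 4.04 TPM in XEN cells.

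Regulators of chromatin and RNA covered a wide range of changes. Dppa5a, an RNA-binding protein of pluripotent cells, stood at 6037, 6287 and 6165 TPM in ES cells and at 1.18 and 0.172 TPM in XEN cells. Its change of -11.91 ± 0.18 (SE, limma adjusted p = 2.98e-20) was the largest fall among the autosomal genes ranked below. Dppa5a has near-identical copies in the genome, among which reads can be split. Dnmt3l, the cofactor of the de novo DNA methyltransferases, stood at 431, 433 and 482 TPM in ES cells and at 0.950 and 1.36 TPM in XEN cells, a change of -7.71 ± 0.14 (limma adjusted p = 6.05e-19). The enzymes themselves fell less, with Dnmt3a at 23.3 to 37.7 TPM against 4.40 to 5.01 TPM and Dnmt3b at 112 to 118.5 TPM against 21.6 to 23.7 TPM. The difference between these genes was not tested. Tet1 and Tet2, which oxidise methylated cytosine, were also lower, by -5.04 ± 0.18 and -4.43 ± 0.14 on the log2(TPM + 1) scale. L1td1, an RNA-binding protein gene, Jarid2, a partner of Polycomb complex PRC2, and Trim71, a repressor of mRNAs, were called lower by -3.29, -3.35 and -1.35.

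Lin28a, which blocks the maturation of let-7 microRNAs, was the counterexample in this list. It stood at 108, 108 and 143 TPM in ES cells and at 110 and 116 TPM in XEN cells. The XEN values lay within the range of the ES values, and the change of -0.07 ± 0.13 (SE) was not called (limma adjusted p = 0.657). Its relative Lin28b was low in ES cells, at 5.64 to 7.82 TPM, and was called lower, at 0.921 to 0.940 TPM in XEN cells. Fbxo15, an F-box gene often used as a reporter of pluripotency, was at 94.8 to 99.4 TPM in ES cells and at 104.8 to 105.1 TPM in XEN cells and was not called either. Of the 17 chromatin and RNA regulators, 14 were called lower and none higher, and the remaining gene that was not called was Tex19.1, a germline gene.

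Adhesion molecules and ligands of ES cells were lower, and receptors for LIF and stem cell factor were higher. Cdh1, the epithelial cadherin, stood at 153, 152 and 120 TPM in ES cells and at 4.46 and 4.53 TPM in XEN cells, a change of -4.69 ± 0.14 (SE, limma adjusted p = 6.20e-16). Among ligands of the TGF-beta family and their co-receptor, Gdf3, Nodal and Tdgf1, which encodes the Nodal co-receptor Cripto, were at 62.6 to 65.1, 30.5 to 39.5 and 420 to 517 TPM in ES cells and listed at 0 in both XEN libraries. Fgf4, the growth factor by which epiblast cells signal to primitive endoderm, was at 73.6 to 91.1 TPM in ES cells and also listed at 0 in both XEN libraries. Lefty1 and Lefty2, which are close copies of each other, were lower too, although ES library 3 stood apart for Lefty1 with 8.15 TPM against 41.5 and 37.9 TPM.

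Kit, the receptor of stem cell factor, stood at 17.0, 14.7 and 19.2 TPM in ES cells and at 145 and 147 TPM in XEN cells. Lifr, the receptor subunit that binds LIF, stood at 31.6, 37.6 and 41.6 TPM in ES cells and at 212 and 182 TPM in XEN cells. Both XEN libraries were above every ES library for either gene. The changes were 3.04 ± 0.28 (SE, limma adjusted p = 7.97e-09) and 2.39 ± 0.26 (limma adjusted p = 1.07e-07), and they were the only ES identity genes called higher. Of the 19 surface and signalling genes, 16 were called lower, and Cd24a, a surface glycoprotein whose values overlapped between the cell types, was not called. The others called lower included Spp1, the secreted protein osteopontin, with 740 to 996 TPM in ES cells and 52.8 to 53.7 TPM in XEN cells, Epcam, an epithelial adhesion molecule, with 162 to 188 TPM against 37.9 to 39.9 TPM, and Trh, thyrotropin releasing hormone, with 265 to 296 TPM in ES cells and 0 in both XEN libraries.

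Genes of the LIF pathway did not all move the same way. Of 10 genes of the LIF pathway, 1 was called higher, 4 lower and 5 neither. Over all autosomal genes tested, 20.1% were called higher and 19.9% lower. The ligand gene Lif itself was at 4.13 to 6.38 TPM in ES cells and at 25.7 to 27.2 TPM in XEN cells. Stat3, the transcription factor that carries the signal, was at 36.9 to 51.3 TPM against 58.4 to 59.3 TPM, a change of 0.50 ± 0.17 that stayed under the minimum. The STAT3 target Socs3, an inhibitor of the pathway, was called lower, at 71.7 to 85.6 TPM against 15.1 to 15.6 TPM, as were Pim1, Gbx2 and Bcl3. LIF was in the medium of the ES cells and not in that of the XEN cells, and its part in these values was not tested.

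The 4 metabolic genes of the list were split. Tdh, the threonine dehydrogenase on which mouse ES cells depend, stood at 324.5, 308 and 384 TPM in ES cells and at 0.394 and 0.101 TPM in XEN cells, a change of -8.09 ± 0.29 (SE, limma adjusted p = 6.46e-15). Gldc, of the glycine cleavage system, was called lower with a smaller change of -1.87 ± 0.28, at 105 to 113 TPM against 28.2 to 29.4 TPM. Upp1, a uridine phosphorylase, and Slc2a3, a glucose transporter, were not called and were somewhat higher in XEN cells, at 348 to 362 and 417 to 427 TPM against 184 to 317 and 298 to 346 TPM.

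**Figure D2:**
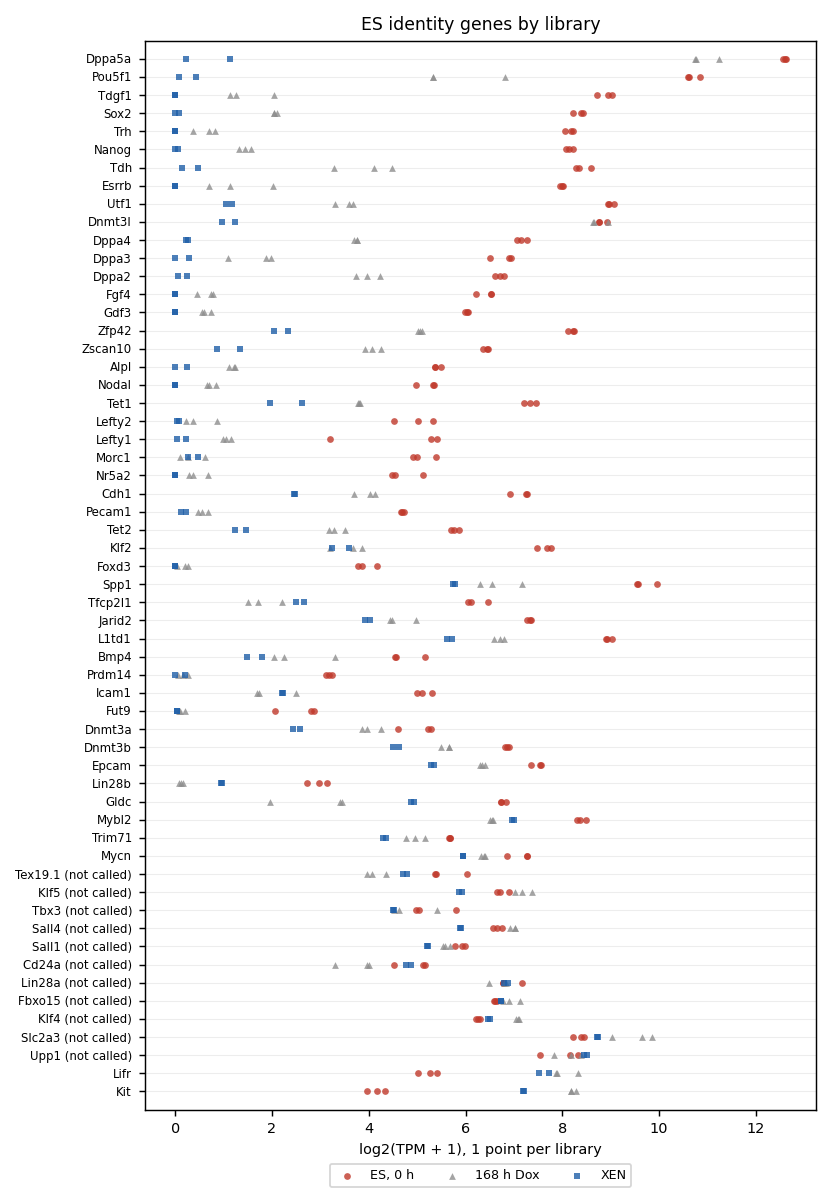
The plot shows 58 of the 59 ES identity genes, ordered by the difference between XEN cells and ES cells, with the log2(TPM + 1) value of each library on the x axis as red circles (ES cells at 0 h), grey triangles (168 h of Dox) and blue squares (XEN cells). The blue squares lie left of the red circles for the genes called lower, next to or among them for the 11 genes marked as not called, and right of them for Lifr and Kit.

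Core transcription factors of the endoderm were near 0 in ES cells and high in XEN cells. Gata6, the factor that specifies primitive endoderm, stood at 0.193, 0.223 and 0.375 TPM in ES cells and at 352 and 341 TPM in XEN cells. Sox17 (chr1:4490931-4497354), an HMG-box factor that maintains the endoderm fate, stood at 0.102, 0.132 and 0.172 TPM in ES cells and at 297 and 299.5 TPM in XEN cells. Gata4 (chr14:63198922-63271692), which acts with GATA6, stood at 0.599, 0.954 and 0.436 TPM in ES cells and at 336 and 347 TPM in XEN cells. The 3 genes were under 1 TPM in each ES library and above 290 TPM in each XEN library. Their changes on the log2(TPM + 1) scale were 8.10 ± 0.10 (SE), 8.04 ± 0.20 and 7.70 ± 0.13, with limma adjusted p values of 9.55e-22, 5.02e-17 and 2.17e-19. Sox7, a relative of Sox17, and Foxa2, a forkhead factor of endoderm, followed at 87.5 to 90.5 and 77.3 to 82.4 TPM.

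Some endoderm factors were present at lower levels. Hnf4a, the nuclear receptor of visceral endoderm and liver, was at 0.0203 to 0.0609 TPM in ES cells and at 10.5 to 12.5 TPM in XEN cells. Foxq1, a forkhead gene, reached 28.7 to 29.5 TPM. In all, 8 of the 11 transcription factors that were tested were called higher. Prdm1, a zinc finger repressor also used by germ cells, was called lower, at 4.47 to 7.50 TPM in ES cells and 0.0101 to 0.222 TPM in XEN cells. Hhex, a homeobox factor of anterior endoderm, and Foxa3 were not called, and Gata5 and Foxa1, further members of the GATA and forkhead families, were at or under 0.0607 TPM in every library of both cell types and were not tested.

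Of the 10 receptors and signals that were tested, 6 were called higher, 1 lower and 3 neither. Pdgfra, the PDGF receptor that marks primitive endoderm, stood at 0.406, 0.254 and 1.00 TPM in ES cells and at 184 and 177 TPM in XEN cells, a change of 6.90 ± 0.17 (SE, limma adjusted p = 2.63e-17). Fst, the activin antagonist follistatin, rose from 4.72 to 8.91 TPM in the ES libraries to 499 to 521 TPM in the XEN libraries. Fgf3, a secreted growth factor, Bmp2, a BMP ligand, Dkk1, a WNT antagonist, and Nrp1, a co-receptor for VEGF and semaphorins, were also called higher, with XEN means of 61.7, 35.0, 32.8 and 34.0 TPM. Fgfr1, which receives FGF4, went the other way, with 30.0, 29.6 and 29.2 TPM in ES cells against 2.26 and 2.003 TPM in XEN cells. Its change was -3.29 ± 0.16 (limma adjusted p = 9.04e-13). Fgfr2, its relative, was at 8.95 to 20.7 TPM against 7.42 to 8.53 TPM and was not called, but without ES library 3, which had the lowest of the ES values, its change was -1.18 and it was called lower. Igf2, an imprinted growth factor, overlapped between the cell types.

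Genes of the basement membrane formed the largest block of RNA among the members. Their sum over 11 genes was 550 to 718 TPM in the ES libraries and 22823 to 23018 TPM in the XEN libraries, or 2.29% of all TPM. The 3 chains of laminin-111 rose together: Lama1 to 3576 and 3572 TPM, Lamb1 to 2779 and 2815 TPM, and Lamc1 to 3846 and 3721 TPM. In ES cells the highest value of the 3 chains in any library was 38.6, 31.1 and 118.6 TPM, so that neither group of libraries came near the other. The changes were 6.70 ± 0.15 (SE), 6.52 ± 0.15 and 5.16 ± 0.13, with limma adjusted p values of 6.62e-18, 9.59e-18 and 2.92e-17. The XEN means of the 3 chains were 3574, 2797 and 3784 TPM.

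The collagen chains were lower than the laminin chains in XEN cells. Col4a1 stood at 10.4, 11.2 and 12.04 TPM in ES cells and at 1130.1 and 1156 TPM in XEN cells, and Col4a2 at 5.45, 4.04 and 7.88 TPM against 507 and 528 TPM. Sparc, a collagen-binding glycoprotein, reached 6134 to 6313 TPM, the highest level of any XEN identity gene, and Serpinh1, the collagen chaperone HSP47, reached 3167 to 3238 TPM. Nid1, Nid2 and Hspg2, the nidogens and perlecan that tie the laminin and collagen networks together, rose by 2.45 to 3.72. Agrn, the heparan sulfate proteoglycan agrin, was the only basement membrane gene not called, with 46.8 to 68.9 TPM in ES cells and 31.9 to 33.6 TPM in XEN cells. In all, 10 of 11 genes were called higher and none lower.

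Genes of the endocytic apparatus were higher except for 1 part of the uptake receptor. Cubn, which encodes cubilin, stood at 0.0812, 0.0812 and 0.0406 TPM in ES cells and at 52.05 and 51.0 TPM in XEN cells, and Lrp2, which encodes its partner megalin, at 4.24, 4.27 and 2.31 TPM against 47.5 and 48.4 TPM. Amn, which encodes amnionless, the protein that brings cubilin to the membrane, stood at 3.47, 2.41 and 3.94 TPM in ES cells and at 0.556 and 0.263 TPM in XEN cells. So both XEN libraries were above every ES library for Cubn and Lrp2 and below every ES library for Amn. The changes were 5.62 ± 0.30 (SE) for Cubn, 3.44 ± 0.34 for Lrp2 and -1.59 ± 0.26 for Amn, with limma adjusted p values of 3.09e-12, 3.16e-08 and 1.93e-05. Dab2, the clathrin adaptor of megalin, was at 256 to 264 TPM in XEN cells, and the lysosomal proteases Ctsl, Ctsh and Lgmn were at 805 to 828, 250.0 to 271 and 715 to 741 TPM.

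Parietal endoderm genes were higher in XEN cells without exception, 7 of 7. Srgn, the proteoglycan serglycin, stood at 0.264, 0.294 and 0.0913 TPM in ES cells and at 628 and 591 TPM in XEN cells. Its change of 8.97 ± 0.35 (SE, limma adjusted p = 4.15e-14) was the largest rise among the autosomal genes ranked below. Plat, the tissue plasminogen activator, was at 0.508 to 1.65 TPM against 414 to 416 TPM, Pth1r, the receptor of parathyroid hormone-related protein, at 0.994 to 2.50 TPM against 490.5 to 491.1 TPM, and Thbd, thrombomodulin, at 0.700 to 2.04 TPM against 167 to 175 TPM. Snai1, a repressor of Cdh1, was at 2.88 to 4.27 TPM in ES cells and 68.2 to 69.4 TPM in XEN cells.

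The intermediate filament genes of this list varied between ES libraries but were higher in both XEN libraries. Vim, vimentin, stood at 149.5, 102 and 62.5 TPM in ES cells and at 1024 and 1049 TPM in XEN cells, a change of 3.38 ± 0.61 (SE, limma adjusted p = 7.55e-05), and Krt19, a keratin, at 8.58, 4.77 and 2.97 TPM against 53.2 and 56.3 TPM. Vim is also expressed by fibroblasts. The 12 fibroblast markers summed to 43.0 to 127.2 TPM in the ES libraries, 122.9 to 126.3 TPM in the XEN libraries and 153 to 314 TPM after 168 h of Dox. Of the 9 fibroblast markers tested, 2 (Col1a1 and Fbn1) were called higher in XEN cells and none lower. Over all autosomal genes tested, 20.1% were called higher and 19.9% lower, so this count is near the share of all genes. The Col1a1 call was lost without ES library 2 (0.82, limma adjusted p = 0.0525). With libraries 1 and 2 averaged (limma adjusted p = 0.135) or with the fibroblast covariate (0.84) the Col1a1 call was lost as well, Col1a2 was called higher without ES library 3 (1.25) or with the replicate block (1.03), and Thy1 was called lower with the fibroblast covariate (-2.44). None of the 12 was at 0 in both XEN libraries. ES library 3 had the highest fibroblast sum and the lowest Vim. The part of feeder RNA in the value of a single gene was not tested.

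Visceral endoderm genes did not follow the other endoderm lists. Of 15 genes, 4 were called higher, 5 lower, 2 neither, and 4 were not tested. Ttr, the thyroxine carrier transthyretin, was listed at 0 in every ES library and stood at 7.02 and 7.10 TPM in XEN cells. Ihh, a hedgehog ligand of visceral endoderm, was at 0.0609 to 0.213 TPM against 4.19 to 4.92 TPM, and Spink1, a trypsin inhibitor, at 44.4 to 49.4 TPM against 163 to 164 TPM. Rbp4, the retinol carrier, was at 1.08 to 1.51 TPM against 8.85 to 9.98 TPM, a call that was lost without XEN library 2 (limma adjusted p = 0.0611). Afp, alpha-fetoprotein, was at 0.728 to 1.48 TPM in XEN cells and was not called, although it was called without ES library 2 or XEN library 2 (changes of 1.03 and 1.17). Apom, an apolipoprotein at 0.152 to 0.253 TPM in XEN cells, was not called, but was called lower without ES library 2 (change of -1.02).

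The apolipoprotein genes were low in XEN cells. Apoe, the apolipoprotein of lipid transport between cells, stood at 792, 725 and 674 TPM in ES cells and at 14.1 and 17.4 TPM in XEN cells, a change of -5.45 ± 0.37 (SE, limma adjusted p = 1.42e-10). Apoa2 and Apoc2, apolipoproteins of lipoprotein particles, and Trf, the iron carrier transferrin, were called lower as well, by -3.88, -1.56 and -3.62. The brush border gene Vil1 was called lower at -1.07 ± 0.18, a call lost without ES library 3. Apoa1, Apoa4 and Apob, which are secreted by mature visceral endoderm, and Cer1, a secreted antagonist of its anterior part, stayed at or under 0.748 TPM in each library of both cell types and were not tested. The other members not tested were Fgf8, a secreted growth factor, and Cxcr4, a chemokine receptor.

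**Figure D3:**
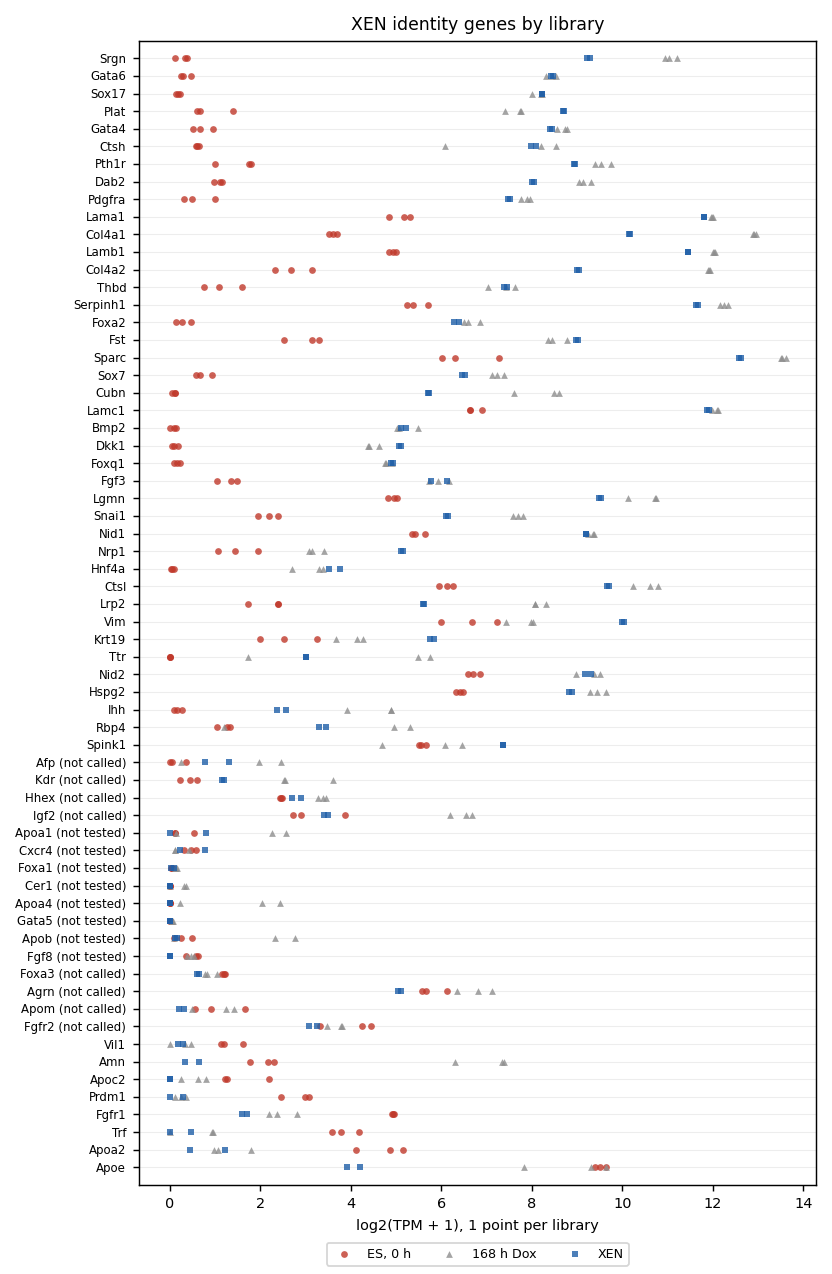
The plot shows 64 of the 65 XEN identity genes, ordered by the difference between XEN cells and ES cells, with the log2(TPM + 1) value of each library on the x axis as red circles (ES cells at 0 h), grey triangles (168 h of Dox) and blue squares (XEN cells). The genes called higher fill the upper part, where blue squares lie right of red circles, and the 8 genes called lower, from Vil1 to Apoe, lie at the bottom with the order inverted.

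Of the 46 ES identity genes called lower, 25 had a mean under 1 TPM in XEN cells and 8 were listed at 0 in both XEN libraries. Of the 41 XEN identity genes called higher, 17 had a mean under 1 TPM in ES cells, and 25 had a mean over 100 TPM in XEN cells. Among the 116 members tested, the libraries of the cell types overlapped for 3, Lin28a, Cd24a and Igf2. Over all autosomal genes tested, 84.6% had no overlap between the 3 ES and the 2 XEN libraries. A lack of overlap between so few libraries is thus the usual state of a gene in this comparison.

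Several members are neighbours on a chromosome. On chromosome 6, Gdf3 (chr6:122605403-122610087), Dppa3 (chr6:122626410-122630272) and Nanog were all called lower. On chromosome 16, Dppa4 (chr16:48283733-48294237), Dppa2 (chr16:48303908-48319723) and Morc1 (chr16:48431237-48630900), genes of pluripotent and germ cells, were also all called lower, by -6.92, -6.56 and -4.74. On chromosome 7, Apoc2 (chr7:19671579-19677941) and Apoe (chr7:19696109-19699188) flank Apoc1 (chr7:19689481-19692660), a further apolipoprotein gene that was at 231 to 255 TPM in ES cells and listed at 0 in both XEN libraries. On chromosome 8, Col4a1 (chr8:11198423-11312826) and Col4a2 (chr8:11312805-11449287) adjoin each other and rose by 6.55 and 6.29. On chromosome 5, 3 receptor tyrosine kinase genes follow each other, of which Pdgfra (chr5:75152292-75198215) and Kit (chr5:75574916-75656722) were called higher, while Kdr (chr5:75932827-75978458), a VEGF receptor, was at 0.173 to 0.518 TPM against 1.21 to 1.29 TPM. Kdr was thus higher in both XEN libraries too, by 0.75, and was not called with a pseudocount of 1 but was with one of 0.1 (change of 1.67, limma adjusted p = 0.000478).

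The proximal promoters of the members were searched for the recognition letters of the factors that distinguish the cell types. The motifs were TTTGCAT for POU factors such as OCT4, ACAATG for SOX factors and AGATAA for GATA factors, on both strands of the 250 bases before each start in RefSeq (GRCm38.p6), and neighbouring motifs may overlap by their end letters, the POU motif by CAT with a SOX motif on the other strand. A window was found for 39 of the 59 ES identity genes and 45 of the 65 XEN identity genes. The POU motif stood in 10.3% of the ES windows, 6.67% of the XEN windows and 4.65% of all 27025 genes with a window. The SOX motif stood in 10.3%, 6.67% and 12.2%, and the GATA motif in 5.13%, 6.67% and 11.4%. These shares rest on 2 to 4 genes each and no difference between them was tested. The pair of windows shown are 1 from a gene that fell and 1 from a gene that rose: the first holds a POU motif and a SOX motif 1 base apart, which no other of the 27025 genes had in its window, and the second holds a GATA motif in a gene that went from near 0 to 10.5 to 12.5 TPM. Capitals mark the motifs. The Nanog window shown is chr6:122707239-122707488 on the + strand, with the motifs from 75 to 62 bases before the start. Another Nanog start has the same motifs from 151 to 138 bases before it. The Hnf4a window shown is chr2:163506607-163506856 on the + strand, with the motif from 52 to 47 bases before the start. The window of another Hnf4a start, chr2:163546905-163547154, holds no GATA motif.
Nanog: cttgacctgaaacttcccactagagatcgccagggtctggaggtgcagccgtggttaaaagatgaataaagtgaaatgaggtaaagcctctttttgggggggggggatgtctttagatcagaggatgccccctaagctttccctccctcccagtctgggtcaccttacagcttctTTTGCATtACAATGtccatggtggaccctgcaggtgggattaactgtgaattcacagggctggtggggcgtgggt
Hnf4a: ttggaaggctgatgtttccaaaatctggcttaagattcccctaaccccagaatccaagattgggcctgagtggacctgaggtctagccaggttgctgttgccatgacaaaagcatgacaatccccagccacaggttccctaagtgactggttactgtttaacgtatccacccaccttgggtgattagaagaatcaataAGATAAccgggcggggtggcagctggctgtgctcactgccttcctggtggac
A match is a description of these letters, not of a bound site.

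The genes with the largest changes were in part members and in part not. Ranked were autosomal genes that were called, did not overlap between the cell types and had a mean of at least 5 TPM in either. Names of Gm followed by digits and names ending in Rik were left out. Among the 15 largest rises on autosomes, 9 were members and the other 6 were Hs3st1, a heparan sulfate sulfotransferase, Enpep, an aminopeptidase, Stra6, the retinol uptake receptor, Glipr1, of the family of cysteine-rich secretory proteins, Aqp8, a water channel, and Adamts9, a matrix protease. Enpep stood at 0.112, 0 and 0 TPM in ES cells and at 237 and 240.1 TPM in XEN cells. Among the 15 largest falls, the genes outside the lists were Ifitm1, an interferon-induced membrane protein, Rasgrp2, an exchange factor for small GTPases, Apoc1, Chchd10, a mitochondrial protein, and Rbmxl2, an RNA-binding protein. Chchd10 stood at 889, 811 and 764 TPM in ES cells and at 2.24 and 3.27 TPM in XEN cells.

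The ES cells driven by GATA6 for 168 h allow the XEN line to be set beside cells of the same starting line. Against them, 26 ES identity genes were called lower in XEN cells, 2 higher and 31 neither, where 8.58% of the autosomal genes tested were called lower and 4.77% higher. Of the 57 XEN identity genes that were tested, 5 were called higher, 15 lower and 37 neither. The median change was -0.79 for ES identity genes, -0.51 for XEN identity genes and -0.12 over all genes tested. After median-of-ratios rescaling, the median over all genes was -0.01, and the calls on autosomes went from 633 higher and 1139 lower to 811 higher and 894 lower. The same rescaling left 20 ES identity genes and 12 XEN identity genes lower. Of the 48 members called in this comparison, 13 lost the call under at least 1 other setting or without 1 library, among them Alpl, Cd24a, Dab2, Dnmt3b, Epcam, Esrrb, Kit, L1td1, Lgmn, Plat, Sall4 and Vim. This comparison shares the XEN libraries with that against ES cells, so the values are given side by side.

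Core endoderm factors were at similar levels in both. Gata6 stood at 352 and 341 TPM in XEN cells and at 370, 317 and 346 TPM after 168 h of Dox, where the cassette adds to the value, Sox17 at 297 and 299.5 TPM against 295, 298 and 257 TPM, and Foxa2 at 77.3 to 82.4 TPM against 90.1 to 114.8 TPM. The change was 0.01 for Gata6, 0.08 for Sox17 and -0.32 for Foxa2, with SE of 0.10, 0.20 and 0.27, and none was called. The 3 laminin chains, both nidogens, Pdgfra, Bmp2, Fgf3 and Thbd were not called either.

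Some ES identity genes that were still expressed after 168 h of Dox were lower in XEN cells. Dnmt3l stood at 393, 399 and 490 TPM after 168 h of Dox against 0.950 and 1.36 TPM in XEN cells, a change of -7.63 ± 0.14 (SE, limma adjusted p = 1.46e-18). Its mean was 449 TPM before Dox, peaked at 592 TPM at 72 h and ended at 427 TPM, and the libraries at 168 h overlapped the 431 to 482 TPM of the ES cells. Dppa5a was at 1706 to 2427 TPM and Pou5f1 at 39.1 to 111.9 TPM after 168 h, against 0.172 to 1.18 and 0.0506 to 0.354 TPM in XEN cells. Of the 19 ES transcription factors, 9 were called lower than after 168 h and 10 were not called. Among the visceral endoderm genes, Apoe was at 226 to 793 TPM after 168 h and at 14.1 to 17.4 TPM in XEN cells.

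Uptake and collagen genes were also lower in the XEN line than in the induced cells. Col4a1 stood at 7905, 7559 and 7654 TPM after 168 h against 1130.1 and 1156 TPM in XEN cells, a change of -2.75 ± 0.15 (SE, limma adjusted p = 2.97e-11), and Col4a2 at 3789 to 3898 TPM against 507 to 528 TPM. The laminin chains, which were not called, were at 3983 to 4450 TPM after 168 h. Amn stood at 167, 161 and 78.0 TPM after 168 h against 0.556 and 0.263 TPM in XEN cells, a change of -6.52 ± 0.26 (limma adjusted p = 2.56e-13). Cubn and Lrp2 were at 194 to 387.5 and 266 to 316 TPM after 168 h against 51.0 to 52.05 and 47.5 to 48.4 TPM. Srgn, Snai1, Ihh, Igf2, Kdr and Agrn were lower in XEN cells as well, by -3.02 to -1.56 on the log2(TPM + 1) scale.

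A small set of endoderm genes was higher in the XEN line than in the induced cells. Vim stood at 1024 and 1049 TPM in XEN cells against 253, 261 and 172 TPM after 168 h, a change of 2.20 ± 0.61 (SE, limma adjusted p = 0.00599), and was not called with libraries 1 and 2 of each group averaged (limma adjusted p = 0.0725). Nrp1 stood at 34.6 and 33.3 TPM against 7.87, 7.38 and 9.58 TPM, and Krt19 at 53.2 and 56.3 TPM against 11.8, 16.5 and 18.2 TPM. Spink1 was at 163 to 164 TPM against 24.7 to 86.8 TPM, and Plat at 414 to 416 TPM against 168 to 215 TPM, a call lost without either XEN library (limma adjusted p = 0.0648 and 0.0628). Gldc and Cd24a were the ES identity genes called higher, with Gldc at 28.2 to 29.4 TPM in XEN cells against 2.88 to 9.91 TPM.

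**Figure D4:**
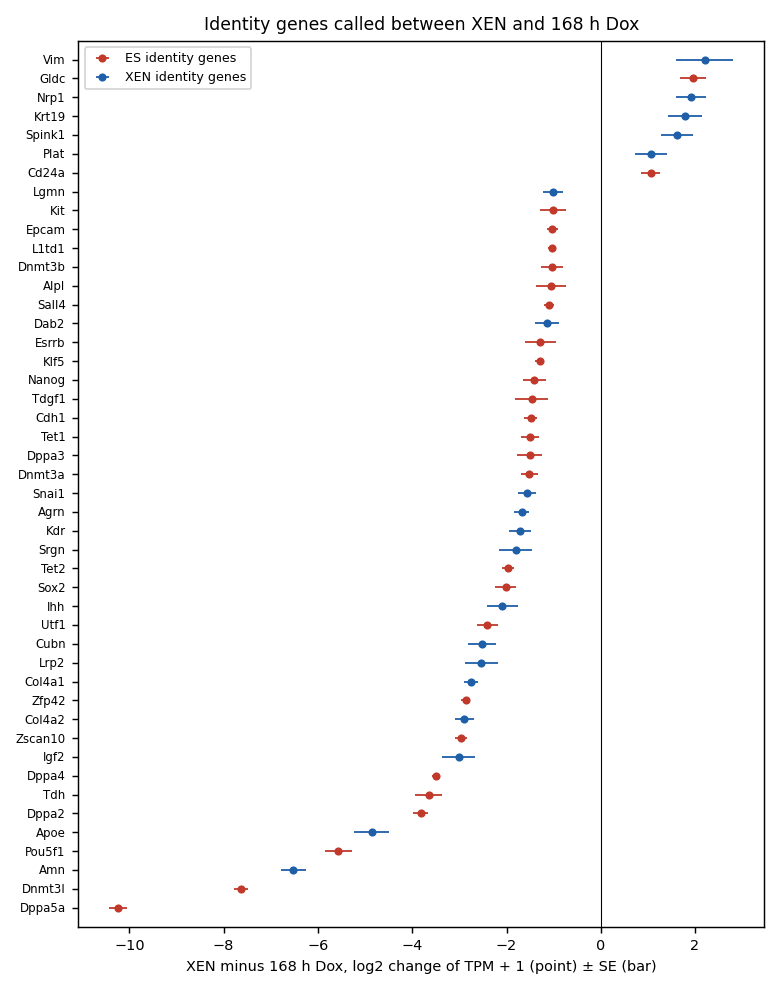
The change from cells after 168 h of Dox to XEN cells is shown on the x axis, on the log2(TPM + 1) scale with its SE as a bar, for 46 of the 48 identity genes called in that comparison. The 7 genes on the right of 0 include Vim, Nrp1, Krt19, Spink1 and Plat, and the left end is formed by Dppa5a, Dnmt3l, Amn, Pou5f1 and Apoe.

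Summed over the lists, the endoderm lists of XEN cells lay between ES cells and induced cells or near the latter. The 13 XEN transcription factors summed to 0.00143% of all TPM in ES cells, 0.139% after 168 h and 0.123% in XEN cells. The basement membrane genes made up 0.0613%, 4.30% and 2.29%, and the endocytic genes 0.0107%, 0.456% and 0.216%. For the visceral endoderm genes the order was different, with 0.0824% in ES cells, 0.0705% after 168 h and 0.0203% in XEN cells, and the range at 168 h was wide, from 271 to 989 TPM. Apoe alone was at 674 to 792 TPM of the 760 to 893 TPM summed in ES cells. It was at 226 to 793 TPM after 168 h and at 14.1 to 17.4 TPM of the 201 to 205 TPM summed in XEN cells. The order of these sums thus rests largely on 1 gene and does not describe the rest of the list. In XEN cells Spink1 was the most abundant of these genes. The 59 ES identity genes made up 1.64%, 0.561% and 0.211%.

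**Figure D5:**
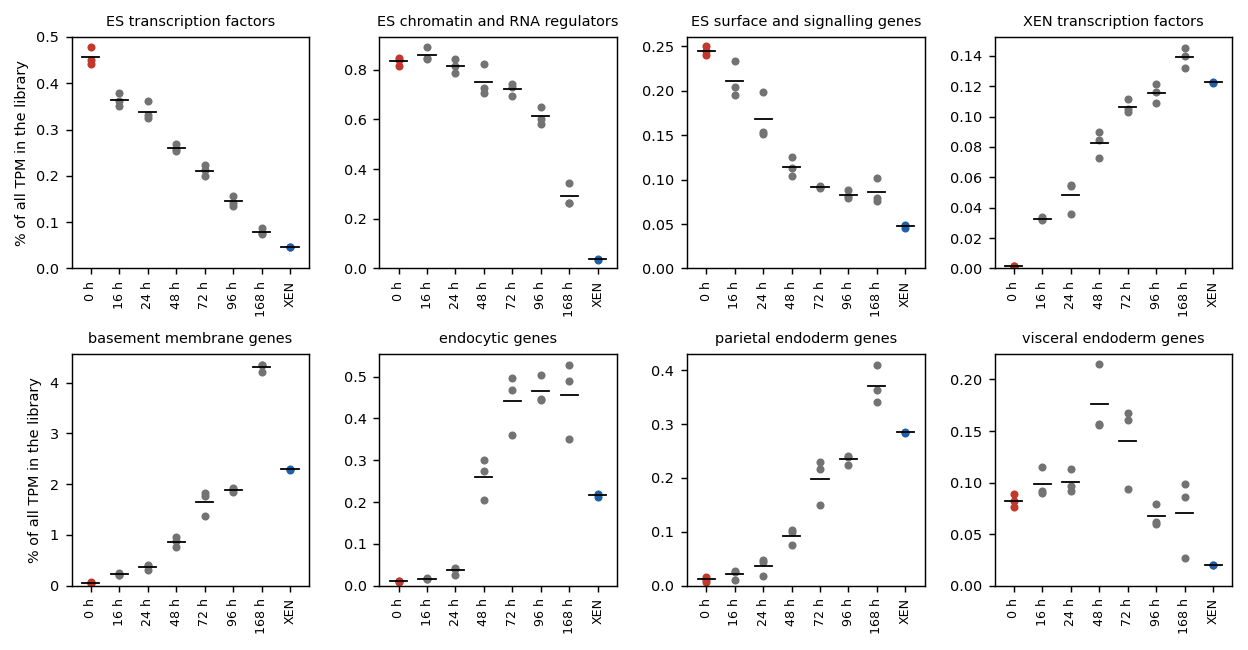
Each panel shows the summed level of the autosomal genes of 1 list as a percent of all TPM of a library, with 1 point per library and the mean as a line, for ES cells at 0 h (red), 6 times of Dox (grey) and XEN cells (blue). The 3 ES lists drawn are highest at 0 or 16 h and lowest in XEN cells. The mean of the endocytic list is above that of XEN cells from 48 h on and that of the basement membrane list at 168 h.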

How the data were processed

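The authors prepared stranded polyA libraries after removing feeders by adsorption, and the submitters' processing notes name bcl2fastq, cutadapt, STAR, RSEM and mm10, whose versions and gene annotation are not given in the sources used here. The deposited values are TPM per gene symbol. Columns summed to 999764 to 999881 TPM. TPM keep no read numbers, so the depth of a library is unknown and the spread between libraries is the measure of error. The study states that replicates were independent.

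Symbols on more than 1 row (60) kept the row with the highest mean, leaving 44853 genes, 43006 with a position in GENCODE M21 (mm10). TPM were used as log2(TPM + 1), with a pseudocount of 1, which understates changes of low genes. limma 3.58.1 in R 4.3.3 (lmFit, eBayes with trend and robust options) was fitted to all 23 libraries of the induction series in 8 groups, so that the groups share an estimate of spread, and was checked on simulated data. Contrasts were XEN minus 0 h and XEN minus 168 h of Dox. The p-values were adjusted by Benjamini-Hochberg over all genes tested on any chromosome, and a call needed an adjusted p under 0.05 and a log2 change above 1. The members and lists were chosen with earlier results of these data known, and no list was tested. Named genes are the members, the genes of the other lists and the 15 largest autosomal rises and falls under the limits given above. The siRNA libraries of the series were not used here, and some genes of the lists count in the totals but are not reported here by name. Alternatives were median-of-ratios rescaling, other filters, pseudocount and thresholds, a replicate block, each library left out and, chosen after seeing the data, libraries 1 and 2 averaged and a fibroblast covariate.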

Additional observations from a re-analysis of the deposited data

How the results depend on the processing

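The counts of identity genes against ES cells were steady: without any 1 library, 46 ES identity genes were lower and 2 higher, 41 to 42 XEN identity genes were higher and 8 to 9 lower. Without any 1 library, autosomal genes called higher numbered 2643 to 2678 and lower 2619 to 2749, and against 168 h of Dox 620 to 657 and 1110 to 1222. Against 168 h, leaving out a library gave 1 to 2 ES identity genes higher (1 without library 3 of 168 h), 24 to 26 lower, 4 to 5 XEN identity genes higher and 14 to 20 lower. With a mean of at least 5 TPM, 1761 genes were called lower against ES cells (2642 as reported) and 5 XEN identity genes (8 as reported), since fewer genes were tested. Without a fold minimum, 4927 genes were higher and 5051 lower against ES cells, 2490 and 4291 against 168 h, where 6 ES identity genes were then higher and 23 XEN identity genes lower. With a pseudocount of 0.1, 1780 genes were lower against 168 h (1139 as reported). A single ES identity gene was called higher against 168 h with the replicate block or with the fibroblast covariate, and 3 XEN identity genes with libraries 1 and 2 averaged (5 as reported). Changes of sign were seen for Lin28a, whose change was -0.14 to 0.066 when 1 library was left out (positive without ES library 3), and Cd24a, 0.0064 with the fibroblast covariate, neither of which was called against ES cells under these settings. The cause of these shifts was not tested.

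The deviations of same-numbered libraries of ES and XEN cells had correlations of -0.01 and -0.04. With 2 XEN libraries their deviations mirror each other, so these values carry little information. Across all groups, the mean correlation was 0.037 for 77 same-numbered pairs and -0.018 for 154 other pairs. In the fit reported the numbers were not taken as pairs. With the replicate block, 2639 genes were higher and 2668 lower against ES cells, with 46 ES identity genes lower and 41 XEN identity genes higher. In every group, libraries 1 and 2 were closer to each other than to library 3 where there was one, and with these averaged the counts of identity genes against ES cells stayed within 1.5 times those reported. Unknown depth limits the low values, so levels near the step of 0.0101 TPM carry little information.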

Other observations

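The few markers of trophoblast, neural and formative epiblast cells that were tested were called lower in XEN cells than in ES cells. The neural and formative lists summed to at most 0.556 and 0.172 TPM in XEN cells. Their members could thus pass the filter of 1 TPM only through ES cells, so the direction of their calls was fixed by the filter. The 10 trophoblast markers summed to 36.1 to 49.2 TPM in ES cells and 1.76 to 1.78 TPM in XEN cells. Of them 3 were tested and called lower, and 7 were too low for a test in both cell types. Among the 3 was Tfap2c, a factor shared by trophoblast and germ cells, at 30.4 to 42.4 TPM against 0.0202 to 0.0303 TPM. Of the neural markers, Olig2, a helix-loop-helix factor, was at 11.8 to 12.9 TPM in ES cells and 0.0202 to 0.0506 TPM in XEN cells, and Sox1 was at 0.862 to 1.13 TPM in ES cells and listed at 0 in both XEN libraries, a call lost with the fibroblast covariate or with libraries 1 and 2 averaged (-0.98). Of the formative epiblast markers, Otx2 was at 7.37 to 10.6 TPM in ES cells and listed at 0 in both XEN libraries, and Pou3f1 was at 3.51 to 5.90 TPM against 0.0506 to 0.172 TPM. None of the 5 mesoderm and 5 2-cell-like markers reached the level for a test in either cell type.

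The 8 reference genes were not equal between the lines. Gapdh, a glycolytic enzyme, stood at 4605 to 4859 TPM in ES cells and 2386 to 2445 TPM in XEN cells, a change of -0.98 ± 0.12 (SE) that was not called but passed the minimum under 3 other settings.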
